A study of Rattus norvegicus with 2 samples.

Results

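The genes described here are 10 genes of the circadian clock and its direct outputs, Per1, Per2, Per3, Cry1, Npas2, Nr1d1, Nr1d2, Dbp, Tef and Ciart, out of 22093 genes that had a probe set of their own on the arrays. They were chosen by gene symbol. Probe sets whose only symbol in the platform annotation was that of a member were taken, and for Cry1, which had 2 of them, the brighter was used. The 10 genes had 11 probe sets in all. RNA came from whole kidneys of male Dahl salt-sensitive (Dahl/SS) rats, a strain that becomes hypertensive on salt, obtained at 3 weeks of age. The DSH+2.5%SF rats received chow with 8% NaCl for 4 weeks and, from 1 week after its start, sucroferric oxyhydroxide (SF), an iron-based intestinal phosphate binder, at 25 mg/g chow. The DSH rats received the same high-salt chow without SF, so that both groups were salt loaded and no normal-salt kidney was on the arrays. The labels call the groups 2.5%SF and control, and the diets are those of the methods. Each group was measured on 1 Clariom D array that carried the mixed RNA of 3 rats, so that no spread between rats was measured and no test was possible.

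The circadian clock of a mammalian cell is a transcriptional feedback loop. CLOCK or its relative NPAS2 pairs with BMAL1 on E-box sequences and switches on the Per and Cry genes, whose proteins return to the nucleus and inhibit that pair. A further loop holds the nuclear receptors REV-ERB alpha and beta, encoded by Nr1d1 and Nr1d2, which repress Bmal1, Npas2 and other genes through response elements shared with the activating ROR receptors (RORE). Outputs such as Dbp and Tef, transcription factors of the PAR bZIP family, bind D-boxes and pass the rhythm on. The kidney has a strong clock of this kind, and sodium transport, urine flow and phosphate excretion vary over the day. In rodent peripheral tissues the transcripts follow each other in a fixed order, with Bmal1 and Npas2 high around the end of the night, Nr1d1 and then Dbp, Tef, Per3 and Ciart high in the light phase, Per1 and Per2 near its end, and Cry1 in the night. The methods state an overnight fast before blood sampling, and the sources used here do not give the hour at which the kidneys were removed.

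Sequences upstream of the members were read from RefSeq (build GRCr8), to show the letters by which the loop is wired. Of the 10 genes 9 had an entry, and Nr1d1 had windows for a pair of transcript starts, which made 10 windows of 250 bases upstream of a start. Each was searched on both strands for the E-box CACGTG, the E-prime box CACGTT, the D-box TTATGTAA or TTACGTAA, the RORE, the cyclic AMP response element TGACGTCA and the palindromic glucocorticoid response element (GRE). Ciart, Tef and Nr1d1 held an E-box, Nr1d1 and Per2 an E-prime box and Per2 a D-box, and 5 genes had no match. Among all 33469 windows of that length 5.59% held an E-box, 4.07% an E-prime box, 0.932% a D-box, 0.669% a RORE, 1.59% a cyclic AMP response element and 0.0120% a GRE. A match is a description of letters and not a measured binding site, and no match says only that these letters are not in the window. Only for Dbp, Nr1d2 and the outer start of Nr1d1 did the window lie before the annotated start of the gene. The other windows of members lay before a transcript start further inside the gene, so that no match there does not describe the whole promoter.

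The stretches below, 30 bases each, show every match found in a member, followed by the RORE of Bmal1 and the E-box of Bhlhe40, 2 loop genes described further on, the first because Bmal1 is the classic target of REV-ERB proteins and the other because it had the lowest ratio of the loop. Capitals mark the matched letters, and AACGTG is the E-prime box read from the other strand.
Ciart, chr2:186112257-186112286, minus strand: ggaggCACGTGcagagccgCACGTGtctgg
Ciart, chr2:186112322-186112351, minus strand: tgtatctagagtCACGTGttgccggcaaag
Tef, chr7:115206617-115206646, plus strand: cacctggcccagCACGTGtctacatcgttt
Per2, chr9:99497038-99497067, minus strand: aacgcgcgcggtCACGTTttccactatgtg
Per2, chr9:99497167-99497196, minus strand: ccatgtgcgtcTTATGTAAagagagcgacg
Nr1d1, inner start, chr10:84229628-84229657, minus strand: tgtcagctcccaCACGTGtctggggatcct
Nr1d1, outer start, chr10:84231969-84231998, minus strand: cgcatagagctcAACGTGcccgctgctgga
Bmal1, chr1:176766298-176766327, plus strand: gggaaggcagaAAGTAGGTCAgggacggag
Bhlhe40, chr4:143174218-143174247, plus strand: agcgttgtccaaCACGTGagactcatgtga

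The whole window before the outer start of Nr1d1 is given as an example of a clock gene promoter with its E-prime box in capitals.
Nr1d1, chr10:84231813-84232062, minus strand: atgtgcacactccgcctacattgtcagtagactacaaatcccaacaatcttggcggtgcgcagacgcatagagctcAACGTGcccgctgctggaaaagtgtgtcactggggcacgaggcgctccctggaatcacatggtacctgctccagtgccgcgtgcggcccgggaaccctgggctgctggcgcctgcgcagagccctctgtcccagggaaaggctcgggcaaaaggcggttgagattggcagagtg

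The arrays gave 68842 probe sets with intensities computed by RMA, a method of background correction, normalization and summary. The median intensity was 23.7 in DSH+2.5%SF and 22.9 in DSH, and 7.46% of all probe sets were listed at exactly the same intensity in both pools, so that an equal value is a property of the table and not a measure of stability. The 7 measured kidney markers were among the brightest genes, from 2347 to 469762 in DSH+2.5%SF and from 2984 to 469762 in DSH, and of these Kl, the gene of klotho, was called higher (log2 ratio 0.71). The measured markers of adrenal (Cyp11a1 and Star) and liver were dim, at no more than 31.3 in DSH+2.5%SF and 34.1 in DSH. Of 4 adipose markers Adipoq reached 130 in DSH+2.5%SF and 91.9 in DSH, and the other 3 stayed at or below 29.1 in DSH+2.5%SF and 30.3 in DSH. The 4 leukocyte markers summed to 889 in DSH+2.5%SF and 911 in DSH, and of these the B cell gene Cd79a was called lower, at 75.3 in DSH+2.5%SF and 119 in DSH. The macrophage gene Cd68 went the other way, at 294 in DSH+2.5%SF and 271 in DSH. Ptprc was listed at 497 in both pools, and Cd3e was dim, at 22.2 in DSH+2.5%SF and 23.5 in DSH. The part of such cells in the results was not tested. Following the thresholds in the methods, a higher call needed both a ratio of DSH+2.5%SF over DSH of 1.5 or more and a Z-score of 2.0 or more, and a lower call a ratio of 0.66 or less with a Z-score of −2.0 or less. The Z-score is the log2 ratio minus its mean over all probe sets (0.03) divided by its SD (0.34), which put the effective limit at a 1.63-fold higher or 1.57-fold lower level.

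None of the 10 clock and output genes was called. No member was higher, against 1.09% of all genes called higher, and no member was lower, against 1.36% of all genes called lower. With shares that small, 0 of 10 lies near the background and sets the members neither apart from nor beside other genes. Their log2 ratios of DSH+2.5%SF over DSH spanned −0.40 to 0.50 with a median of −0.10, where the median of all genes was 0. Of the 10 genes 3 lay above 0, 6 below it and 1 at 0, and of all genes 43.4% lay above and 47.5% below.

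**Figure D1:**
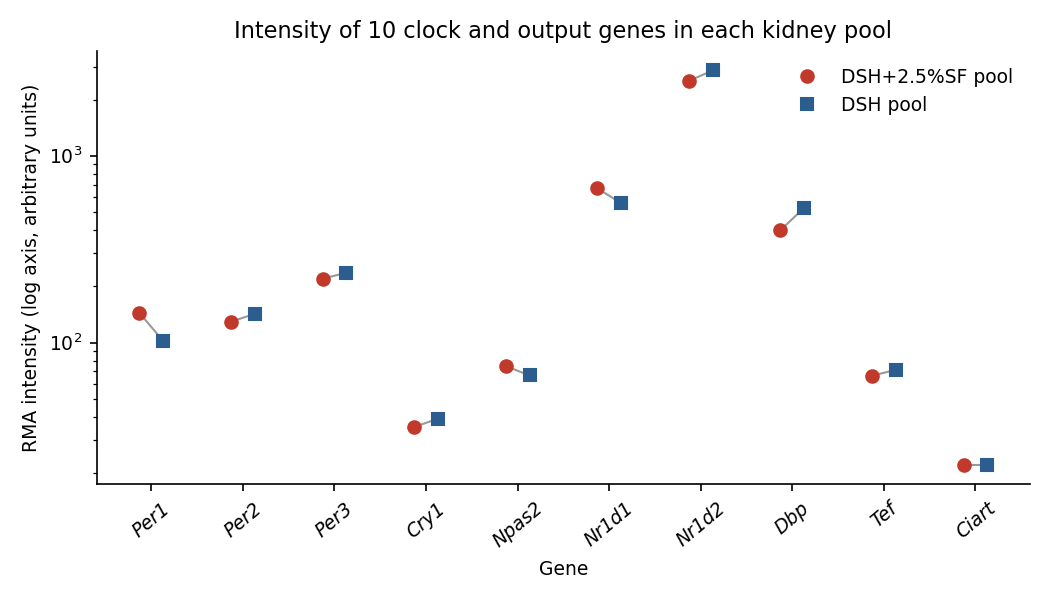
RMA intensity on a log axis of each of the 10 genes, with the DSH+2.5%SF pool as circles and the DSH pool as squares, 1 array each and no error bars. Per1 was at 144 in DSH+2.5%SF and 102 in DSH, Dbp at 399 in DSH+2.5%SF and 527 in DSH, and the 2 points of Ciart stand at the same height, 22.2.

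The Period genes encode the repressor proteins that accumulate over the day. Per1, which also responds quickly to hormones and to other stimuli, had an intensity of 144 in DSH+2.5%SF and 102 in DSH, a ratio of 1.41 and a log2 ratio of 0.50. This was the highest ratio among the members, and 3.07% of all genes had a higher one. Its Z-score was 1.39. Per2 was at 129 in DSH+2.5%SF and 142 in DSH, with a log2 ratio of −0.14, and Per3 at 220 in DSH+2.5%SF and 236 in DSH, with a log2 ratio of −0.10. Per1 thus lay on the other side of 0 from Per2 and Per3, and the ratios of Per2 and Per3 were matched or exceeded in size by 52.3% and 63.5% of all genes.

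Cry1 encodes the cryptochrome that, with the PER proteins, closes the loop. It was dim, at 35.3 in DSH+2.5%SF and 39.2 in DSH, with a log2 ratio of −0.15. Its other probe set was dimmer still, at 17.9 in DSH+2.5%SF and 19.9 in DSH, and gave the same log2 ratio of −0.15. Ciart, known as Chrono, encodes a further repressor of the CLOCK and BMAL1 pair. It was listed at 22.2 in both pools and had the dimmest signal of the members, above that of 36.3% of all genes. Identical values were listed for 9.13% of all genes.

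The REV-ERB genes lay on opposite sides of 0. Nr1d1 was at 670 in DSH+2.5%SF and 557 in DSH, a ratio of 1.20 and a log2 ratio of 0.27, with 11.4% of all genes higher. It lies tail to tail with the thyroid hormone receptor gene Thra, and the sources used here do not say whether its probes avoid the shared stretch. Nr1d2, with the brightest signal of the members, was at 2515 in DSH+2.5%SF and 2861 in DSH, a log2 ratio of −0.19. Npas2, the only member whose product pairs with BMAL1 on E-boxes, was at 74.8 in DSH+2.5%SF and 66.7 in DSH, a log2 ratio of 0.17.

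Dbp encodes the output factor whose transcript swings most widely over the day in many rodent tissues. It was at 399 in DSH+2.5%SF and 527 in DSH, 1.32-fold lower, with a log2 ratio of −0.40 and a Z-score of −1.27. This was the lowest ratio of the members, and 6.73% of all genes had a lower one. Tef, its PAR bZIP relative, was at 66.4 in DSH+2.5%SF and 71.4 in DSH, a log2 ratio of −0.11. The distance between Per1 and Dbp was 0.90 on the log2 scale.

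**Figure D2:**
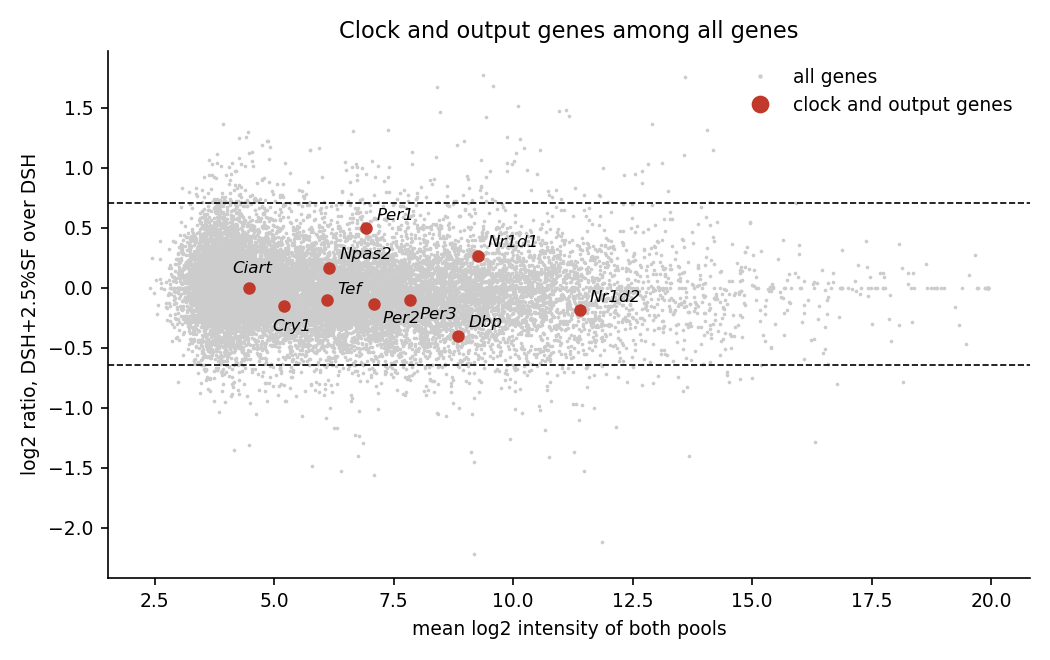
Log2 ratio of DSH+2.5%SF over DSH against the mean log2 intensity of both pools, for all genes in grey and the 10 clock and output genes in red, with dashed lines at the effective limits of the Z-score and ratio criteria. The members lie between −0.40 (Dbp) and 0.50 (Per1), inside both lines, and range from dim (Ciart) to bright (Nr1d2).

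The scatter of log2 ratios among probe sets of similar brightness gives a scale for these values, although real differences of the pools enter it together with measurement error. Among the 1000 probe sets nearest in brightness its SD was 0.39 for Per1 and 0.39 for Dbp, and between 0.32 and 0.48 for the other members. Measured on that scale Per1 had a local Z-score of 1.23 and Dbp of −1.05. The other 8 members lay between −0.47 (Cry1) and 0.60 (Nr1d1). Per1 and Dbp were therefore the 2 members whose ratio exceeded the local SD, in opposite directions, and neither reached 2.

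To see the members in their loop, the other genes of its arms were read from the same arrays. This list and the later ones were chosen with earlier results of these data known. The shares of all genes called that are given above apply to each list. Of 6 measured activators, which promote transcription at E-boxes and ROREs, none was called, 5 lay above 0 and 1 below it, and the median log2 ratio was 0.19. Clock was at 3031 in DSH+2.5%SF and 2565 in DSH (log2 ratio 0.24). Bmal1, listed also as Arntl, was at 129 in DSH+2.5%SF and 111 in DSH (0.22), and Rora, a receptor that activates through the RORE, at 1025 in DSH+2.5%SF and 883 in DSH (0.22). Rorb and Bmal2 were dim, with log2 ratios of 0.14 and −0.06. No gene of this arm differed by as much as the local SD, with local Z-scores between −0.36 and 0.55.

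Of 11 measured repressors, the members Per1, Per2, Per3, Cry1, Nr1d1, Nr1d2 and Ciart among them, none was called, 2 lay above 0, 8 below it and 1 at 0, and the median was −0.14. Bhlhe40, which encodes the E-box repressor DEC1, had the lowest ratio of the loop at 2913 in DSH+2.5%SF and 4529 in DSH. It was 1.55-fold lower, with a log2 ratio of −0.64 and a Z-score of −1.97, just short of the limit. It passed where the ratio criterion was used alone, but among probe sets of similar brightness its local Z-score was only −1.29. Its relative Bhlhe41, encoding DEC2, was at 112 in DSH+2.5%SF and 138 in DSH (log2 ratio −0.31). Cry2, the other cryptochrome gene, was at 54.0 in DSH+2.5%SF and 69.2 in DSH (−0.36). Nfil3, which encodes the repressor that competes with DBP at D-boxes, was dim, at 18.5 in DSH+2.5%SF and 20.0 in DSH (−0.11). Hlf, the remaining PAR bZIP gene, was at 333 in DSH+2.5%SF and 307 in DSH, a log2 ratio of 0.12 on the other side of 0 from Dbp and Tef. Over the 20 loop genes 8 lay above 0, 11 below it and 1 at 0.

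**Figure D3:**
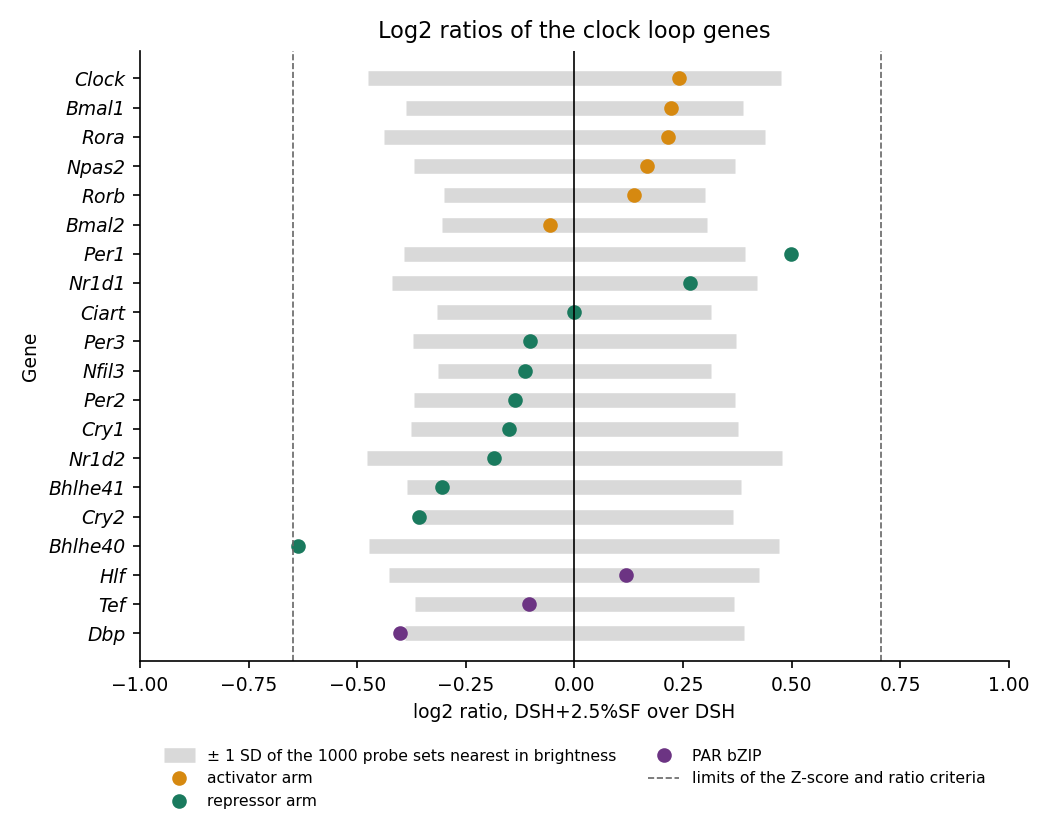
Log2 ratio of DSH+2.5%SF over DSH for each of 20 clock loop genes, colored by arm, with grey bars for 1 SD to either side of 0 among the 1000 probe sets nearest in brightness and dashed lines at the effective limits of the criteria. Of the activators 5 of 6 lie above 0 and of the repressors 8 of 11 below it, and none lies past a limit.

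The ratios can also be read in the order of the daily cycle. The member Npas2 and its partner gene Bmal1, high around the end of the night, had log2 ratios of 0.17 and 0.22. Nr1d1, which rises after them, had 0.27, and Dbp, which follows Nr1d1 closely, had −0.40. Tef, Per3 and Ciart, of the same part of the day, had −0.11, −0.10 and 0, and later in the cycle Per1 had 0.50, Per2 −0.14 and Cry1 −0.15. Npas2, Bmal1 and Nr1d1 thus lay above 0, and Dbp, Tef, Per3, Per2 and Cry1 below it, with Ciart at 0 and Per1 above it. Nr1d2, the other REV-ERB gene, which the order above does not place, had −0.19, on the other side of 0 from Nr1d1. Hlf and Nfil3, also not placed by that order, had 0.12 and −0.11, with Hlf on the other side of 0 from Dbp and Tef. None of these genes was called, and only Per1 and Dbp exceeded the local SD. Whether the pools differed in time of collection was not tested. With 1 pool per group and no recorded hour, such a difference cannot be told apart from one of diet or of the pooled rats, and pooling would average rats taken at different hours.

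Enzymes and cofactors that act on clock proteins were read next. Of 21 measured genes none was called, against 1.09% of all genes higher and 1.36% lower. Of the 21 genes 6 lay above 0, 14 below it and 1 at 0, and the median was −0.09. Csnk1d, a kinase that marks PER proteins for degradation, was at 621 in DSH+2.5%SF and 884 in DSH (log2 ratio −0.51), and Csnk1e, its close relative, at 149 in DSH+2.5%SF and 137 in DSH (0.12). Nono and Wdr5, which encode partners of PER complexes, had log2 ratios of −0.56 and −0.48. The AMP-activated kinase genes Prkaa2 and Prkaa1, whose product marks cryptochromes for degradation, had 0.39 and 0.20. Csnk2b had −0.38, Csnk2a1 −0.25, Hdac3 −0.25, Fbxw11 −0.24, Tipin −0.23 and Timeless −0.20. Btrc had −0.11, Csnk1a1 −0.09, Usp7 −0.09, Fbxw7 −0.08, Huwe1 −0.06, Gsk3b 0, Ncor1 0.03, Sirt1 0.14 and Dyrk1a 0.14.

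Transcripts that cycle in many organs of the mouse were also read, since they report on the clock without being part of it. Of 15 such genes none was called, against 1.09% of all genes higher and 1.36% lower. Of the 15 genes 6 lay above 0 and 8 below it, and the median was −0.04. Alas1, which encodes the enzyme that starts heme synthesis, was at 2949 in DSH+2.5%SF and 3612 in DSH (log2 ratio −0.29). Pnp, a purine salvage gene, was at 550 in DSH+2.5%SF and 673 in DSH (−0.29). Tspan4 was at 76.2 in DSH+2.5%SF and 101 in DSH (−0.41), and Cdkn1a, the gene of the cell cycle inhibitor p21, at 51.7 in DSH+2.5%SF and 38.3 in DSH (0.43). These outputs thus lay on both sides of 0, as the members did.

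Transport and hormone genes of the kidney that have been tied to its clock held 3 called genes of 20 measured, 2 higher (1.09% of all genes) and 1 lower (1.36% of all genes). Since the list was chosen with earlier results of these data known, these shares give no independent comparison. Of the 20 genes 8 lay above 0 and 12 below it, with a median of −0.03. Sgk1, the kinase through which aldosterone and glucocorticoids raise sodium transport, was at 929 in DSH+2.5%SF and 443 in DSH, a ratio of 2.10 (Z-score 3.07). Atp12a, which encodes the colonic type of hydrogen-potassium pump, was at 145 in DSH+2.5%SF and 78.0 in DSH, a ratio of 1.86 (Z-score 2.56). Cldn4, a tight junction gene of the collecting duct, was at 350 in DSH+2.5%SF and 957 in DSH, a log2 ratio of −1.45. The sodium channel genes Scnn1a, a Per1 target in mouse kidney cells, and Scnn1g each had a log2 ratio of 0.50. Scnn1b, the remaining subunit gene of that channel and named here after its value was seen, was at 248 in DSH+2.5%SF and 325 in DSH (log2 ratio −0.39). The water channel gene Aqp4 had −0.49 and the vasopressin receptor gene Avpr2, which was dim, −0.47, and none of these 5 was called.

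Per1 is also a direct target of the glucocorticoid receptor, and a list of genes of that response, which holds Per1 itself, was read. Of 15 measured genes 2 were higher, against 1.09% of all genes, and 1 was lower, against 1.36%. The comparison is not independent here either, for the same reason, and Sgk1 is on both this list and the renal one. Of the 15 genes 10 lay above 0, 4 below it and 1 at 0, with a median of 0.13, and without Per1 the median of the other 14 was 0.11. Zbtb16, a zinc finger gene strongly induced by glucocorticoids, was at 80.0 in DSH+2.5%SF and 36.1 in DSH, a ratio of 2.22 (Z-score 3.31), and Sgk1 was the other higher gene. Zbtb16 lay below the 75th percentile of intensity (83.8) in both pools, so that its call was lost where only brighter probe sets were kept. Fkbp5, a co-chaperone gene of the receptor, was at 168 in DSH+2.5%SF and 112 in DSH (log2 ratio 0.58). Tsc22d3, the gene of the glucocorticoid-induced leucine zipper, had 0.27 and Klf9 had 0.25, and none of these 3 was called. Angptl4, which encodes an inhibitor of lipoprotein lipase, was at 72.0 in DSH+2.5%SF and 136 in DSH, 1.89-fold lower (Z-score −2.80). The part of these genes in the Per1 value was not tested.

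Immediate early genes, which stimuli switch on within minutes, were read as well, and their part in the Per1 value was not tested. Of 19 immediate early genes none was called, against 1.09% of all genes higher and 1.36% lower. Of the 19 genes 6 lay above 0 and 13 below it, against 43.4% and 47.5% of all genes, with a median of −0.09. Jun was at 188 in DSH+2.5%SF and 289 in DSH (log2 ratio −0.62), Egr1 at 165 in DSH+2.5%SF and 240 in DSH (−0.54), and Fos and Ier2 had −0.44 each. Fos was dim, at 14.1 in DSH+2.5%SF and 19.1 in DSH. Of 13 fasting-responsive genes Angptl4 was the 1 called, a lower call (1.36% of all genes), and none was higher (1.09% of all genes). Of the 13 genes 3 lay above 0 and 8 below it, and the median was −0.19. Acot1 had −0.38, Cyp4a1 0.34, Irs2 −0.28 and Foxo1 −0.25. Of 11 temperature-responsive genes, which follow the daily rhythm of body temperature, Hsph1 was the 1 called. It was a lower call (1.36% of all genes), and none was higher (1.09% of all genes). Hsph1 was at 1299 in DSH+2.5%SF and 2128 in DSH, 1.64-fold lower, a call lost with the local Z-score (−1.48). Hspa5 had −0.51, Dnajb1 −0.39, Hsp90aa1 −0.32 and Hspb1, which was dim, −0.30, all of them chaperone genes. Of this list 1 gene lay above 0, 8 below it and 2 at 0, with a median of −0.26. The list was not split by the direction in which its genes respond to temperature. Cirbp (0.20) was the gene above 0, and Rbm3 had −0.11, both named here after their values were seen.

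**Figure D4:**
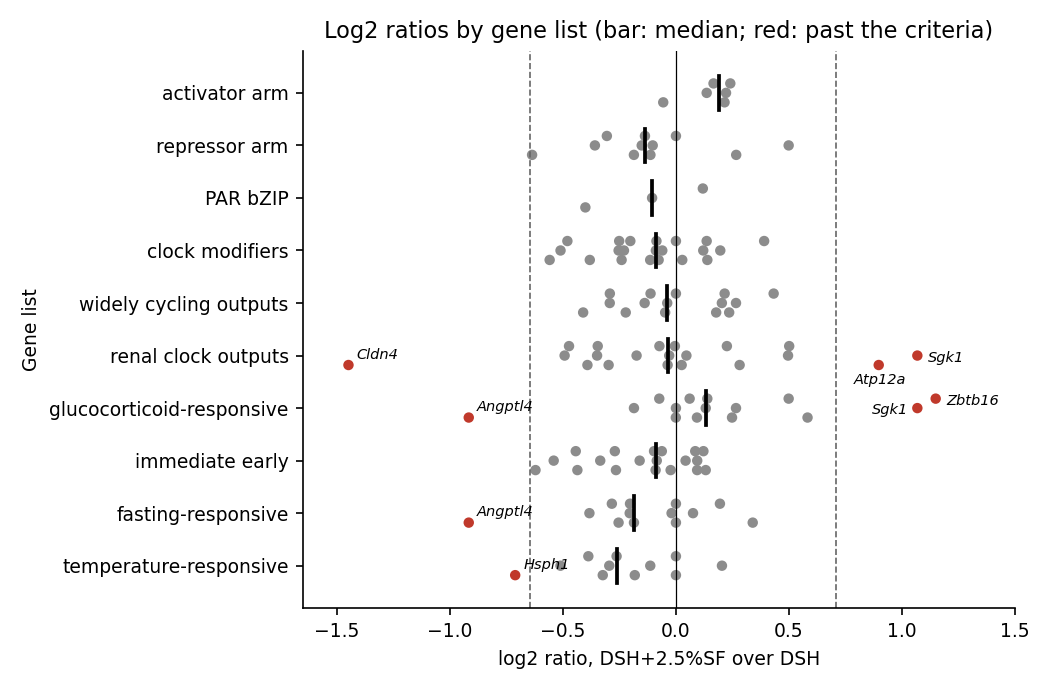
Log2 ratio of DSH+2.5%SF over DSH for the genes of 10 lists, a point per gene, with a black bar at the median of each list, red points for genes past the Z-score and ratio criteria and dashed lines at their effective limits. The called genes are Sgk1, Atp12a and Zbtb16 on the higher side and Cldn4, Angptl4 and Hsph1 on the lower side, none of them in the activator, repressor or PAR bZIP lists, and genes on several lists appear in each.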

How the data were processed

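The data were 2 single-color Clariom D arrays of pooled whole-kidney RNA, DSH+2.5%SF and DSH. Per the labels, the deposited values are RMA intensities, which the authors made with Affymetrix Expression Console (version 1.4.1, from the submitters' processing notes). Their linear scale was read from the values, and the sources used here name no genome build for the probe sets. Log2 was taken, and log2 ratios, Z-scores and calls were computed over all 68842 probe sets. The platform annotation gave 23446 probe sets 1 gene symbol, 505 several and 44891 none. Only the first kind stood for genes. Some genes of the lists are not reported here.

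The members and gene lists were chosen with earlier results of these data known. Named genes were all members, every measured gene of the activator, repressor, PAR bZIP and clock modifier lists, and of each other list the called genes and otherwise up to 4 with the largest log2 ratios in size. Having 1 array per group limits the precision, and no p-value was computed. The alternatives were a local Z-score (over the 1000 probe sets of closest brightness), the ratio alone, stricter ratios (2 or more, 0.5 or less), median centring, quantile normalization, a subtracted loess trend, only probe sets at or above the 75th percentile of intensity in at least 1 pool, and the mean or the dimmest of a gene's probe sets. The calls and the motif search were tested on simulated data with planted changes and motifs. The planted changes were larger than any member ratio, so calls at such small ratios were not tested. Computation was in Python 3.11.15 with numpy 2.4.6, pandas 2.3.3, statsmodels 0.14.6 and matplotlib 3.10.9.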

Additional observations from a re-analysis of the deposited data

How the results depend on the processing

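No alternative called any of the 10 members, whose median log2 ratio ranged from −0.15 with median centring to −0.09 with the loess trend subtracted. The median of all genes moved too, to −0.05 with median centring and −0.03 with the loess trend subtracted. Among probe sets at or above the 75th percentile it was −0.06, where that of the members was −0.12. Among the settings other than the dimmest probe set, Per1 stayed between 0.45 and 0.52 and Dbp between −0.45 and −0.37, and each member other than Ciart, which ran from −0.05 to 0, kept its sign. Restricting to probe sets at or above the 75th percentile left 6 members and, over all genes, 119 higher and 195 lower calls in place of 241 and 301. It left out Zbtb16, which took the higher calls over all lists to 2 in place of 3. The local Z-score gave 195 lower calls and lost that of Hsph1. The ratio criterion alone gave 437 higher calls, and it called 1 loop gene, Bhlhe40, and 5 lower genes over all lists in place of 3. The stricter ratios, 2 or more and 0.5 or less, gave 67 higher and 38 lower calls over all genes and 1 lower call over all lists, Cldn4, with Angptl4, Atp12a and Hsph1 lost. The cause of the changes with the local Z-score was not tested. No paired analysis was possible because each group is 1 array, and no array could be left out. Probe sets close to the dim end, Ciart and Cry1 among the members, limit what a small ratio can show.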
